A study of Mus musculus with 50 samples.

Results

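The genes described here are 35 mouse genes of ribosome biogenesis and MYC-linked growth, chosen by name from the 19224 genes of a single-cell count matrix. Ribosome production starts in the nucleolus, where RNA polymerase I copies the ribosomal DNA into a long precursor. Small nucleolar ribonucleoproteins (snoRNPs) then modify that precursor, and assembly factors cut it and fold it into the small and large subunits. MYC is a transcription factor known for raising genes of this pathway together with polyamine and pyrimidine synthesis in growing cells, and long-term haematopoietic stem cells (HSCs) are known for a low rate of protein synthesis.

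The members were ordered by role. Polr1a, Polr1b, Polr1c, Rrn3 and Ubtf serve RNA polymerase I transcription. Fbl, Nop56 and Nop58 form the core of the box C/D snoRNPs, which direct ribose methylation. Nhp2, Gar1 and Dkc1 belong to the box H/ACA snoRNPs, which direct pseudouridine formation. Ncl, Npm1, Nolc1, Gnl3, Mybbp1a and Ddx21 are nucleolar chaperones and regulators. Rrp9, Utp20, Wdr43, Wdr75, Heatr1, Nob1 and Rrp12 act in small subunit assembly, and Bop1, Pes1, Wdr12, Nop2, Nip7, Ppan, Rrp1b and Noc2l in large subunit assembly. Srm and Odc1 make polyamines, and Cad starts pyrimidine synthesis.

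In the study, 1 HSC carrying a β-actin-GFP transgene was transplanted into each lethally irradiated B6-Ly5.2 mouse, together with whole marrow competitor cells from B6-Ly5.2 mice. The labels give 50 samples, with marrow or spleen taken 1 month (10 samples), 4 months (26) or 12 months (14) after the transplant. Cells were enriched for c-Kit, stained for CD201, CD150, CD48, Sca-1 and lineage antigens, and sorted singly by these surface markers or by GFP. Irradiation and competitor marrow were common to all recipients. Cells of the transplanted HSC were not separated here from competitor or surviving host cells. The cell names hold no sample, so the matrix was treated as 1 pooled sample, and months and tissues were not analysed here. No test was made, and 67 sequencing libraries, which are not replicates, serve only to show how far a value holds from library to library.

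Of 4271 cells used, 4185 passed the filter of 1000 genes or more with no more than 10% of counts mitochondrial. Their medians were 122013 counts and 4186 genes. Classes were set by marker genes outside the member list. Procr+ cells had Procr, the gene of CD201, at 20 CPM or more (counts scaled to the same total) and no lineage call. They were divided by 20 mitotic and 20 S-phase genes into 82 S-phase, 198 mitotic, 321 intermediate and 1928 non-cycling cells. The S-phase and mitotic cells together are the 280 cycling cells. Lineage-marker cells had at least 5 of 8 markers of a lineage at 50 CPM or more, with Procr under 20 CPM. Of the 95 cell numbers in the names, 93 were used by more than 1 library. Another 339 cells that met the Procr gate and also carried a lineage call were left out of every class, and 146 of them came from 3 libraries (Lib54, Lib55 and Lib53). The labelled cell type was read on 8 HSC marker genes, Procr among them. Their summed level was 597 CPM in S-phase and 1097 CPM in non-cycling Procr+ cells, against 151 CPM in erythroid and 118 CPM in plasma cells. Part of this difference is set by the gate. Procr alone had 167 CPM in S-phase and 357 CPM in non-cycling Procr+ cells, against 1.74 CPM in erythroid and 1.43 CPM in plasma cells.

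Ribosome biogenesis genes were higher in Procr+ cells in S phase than in non-cycling ones, and mitotic cells lay near the non-cycling level. The summed counts of the 35 genes made up 7047 CPM in S-phase cells (95% exact Poisson interval 7009 to 7085), 5272 CPM in mitotic cells (5248 to 5296) and 4869 CPM in non-cycling cells (4861 to 4877). Intervals here and below treat counts as independent and leave out differences between cells and libraries. If counts are amplified copies of a molecule, the intervals are too narrow. Per cell, the median sum was 6935 CPM in S-phase cells (quartiles 5322 and 8143), 4595 CPM in mitotic cells (3752 and 5999) and 4629 CPM in non-cycling cells (3678 and 5773). The quartile ranges of all 3 classes overlapped.

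**Figure D1:**
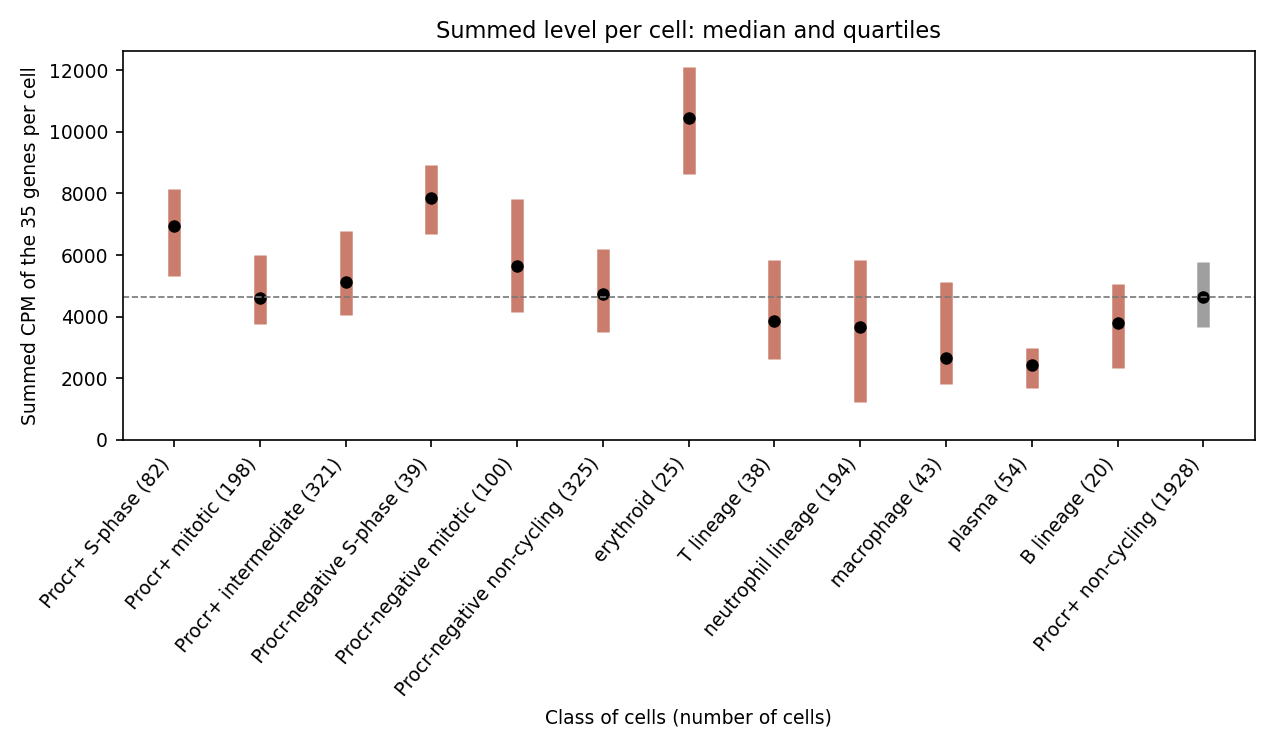
Summed level of the 35 genes per cell in CPM, for each class of cells, with the number of cells in brackets. Dots are medians over cells and bars run between the quartiles. The erythroid cells, with a median of 10450 CPM, lie highest, and the plasma cells, with 2429 CPM, lowest. The dashed line marks the median of the Procr+ non-cycling cells.

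For single genes, the log2 ratio of summed CPM between classes was taken after adding 1 CPM, and a ratio of 0.5 or more in size, 1.41-fold, counts as past the fold. A gene needed 10 CPM over all kept cells. Of the 35 members, 33 reached this level, while Rrp12 (7.79 CPM) and Noc2l (7.52 CPM) did not. In S-phase against non-cycling Procr+ cells, 13 of the 33 members were higher by the fold, where 15.2% of all 8611 genes at this level were, and 0 were lower, where 21.8% of all genes were. The members' median log2 ratio was 0.40 and that of all genes was -0.08. S-phase cells were also sequenced more deeply, with a median of 212436 counts against 130774 in non-cycling cells, and among cells with at least 100000 counts the members' median was 0.46. Other values moved with the gate. Procr had 167 CPM in S-phase and 357 CPM in non-cycling cells. Summed neutrophil markers (8 genes) had 74.4 CPM in S-phase and 122 CPM in non-cycling cells, and erythroid markers (8 genes) 22.9 CPM in S-phase and 17.8 CPM in non-cycling cells. Macrophage markers (8 genes) had 17.4 CPM in S-phase and 62.9 CPM in non-cycling cells, with 7 of the 8 genes lower by the fold. Primary-granule markers (8 genes) had 528 CPM in S-phase and 865 CPM in non-cycling cells, with 4 of 8 lower. Their part in the result was not tested.

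Members of the snoRNPs and of polyamine and pyrimidine synthesis had the largest ratios. The role medians in S-phase against non-cycling cells were 1.33 for polyamine and pyrimidine synthesis, 1.02 for box C/D, 0.85 for box H/ACA and 0.48 for nucleolar chaperones. They were 0.30 for small subunit assembly, 0.28 for large subunit assembly and 0.18 for RNA polymerase I transcription. All 3 box C/D genes, all 3 box H/ACA genes and all 3 synthesis enzymes passed the fold. None of the 5 RNA polymerase I genes and none of the 6 tested small subunit genes did. In the large subunit group, Bop1 alone of 7 tested genes passed it, with a log2 ratio of 0.67, and its sign turned when the S-phase gate asked for 14 genes.

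**Figure D2:**
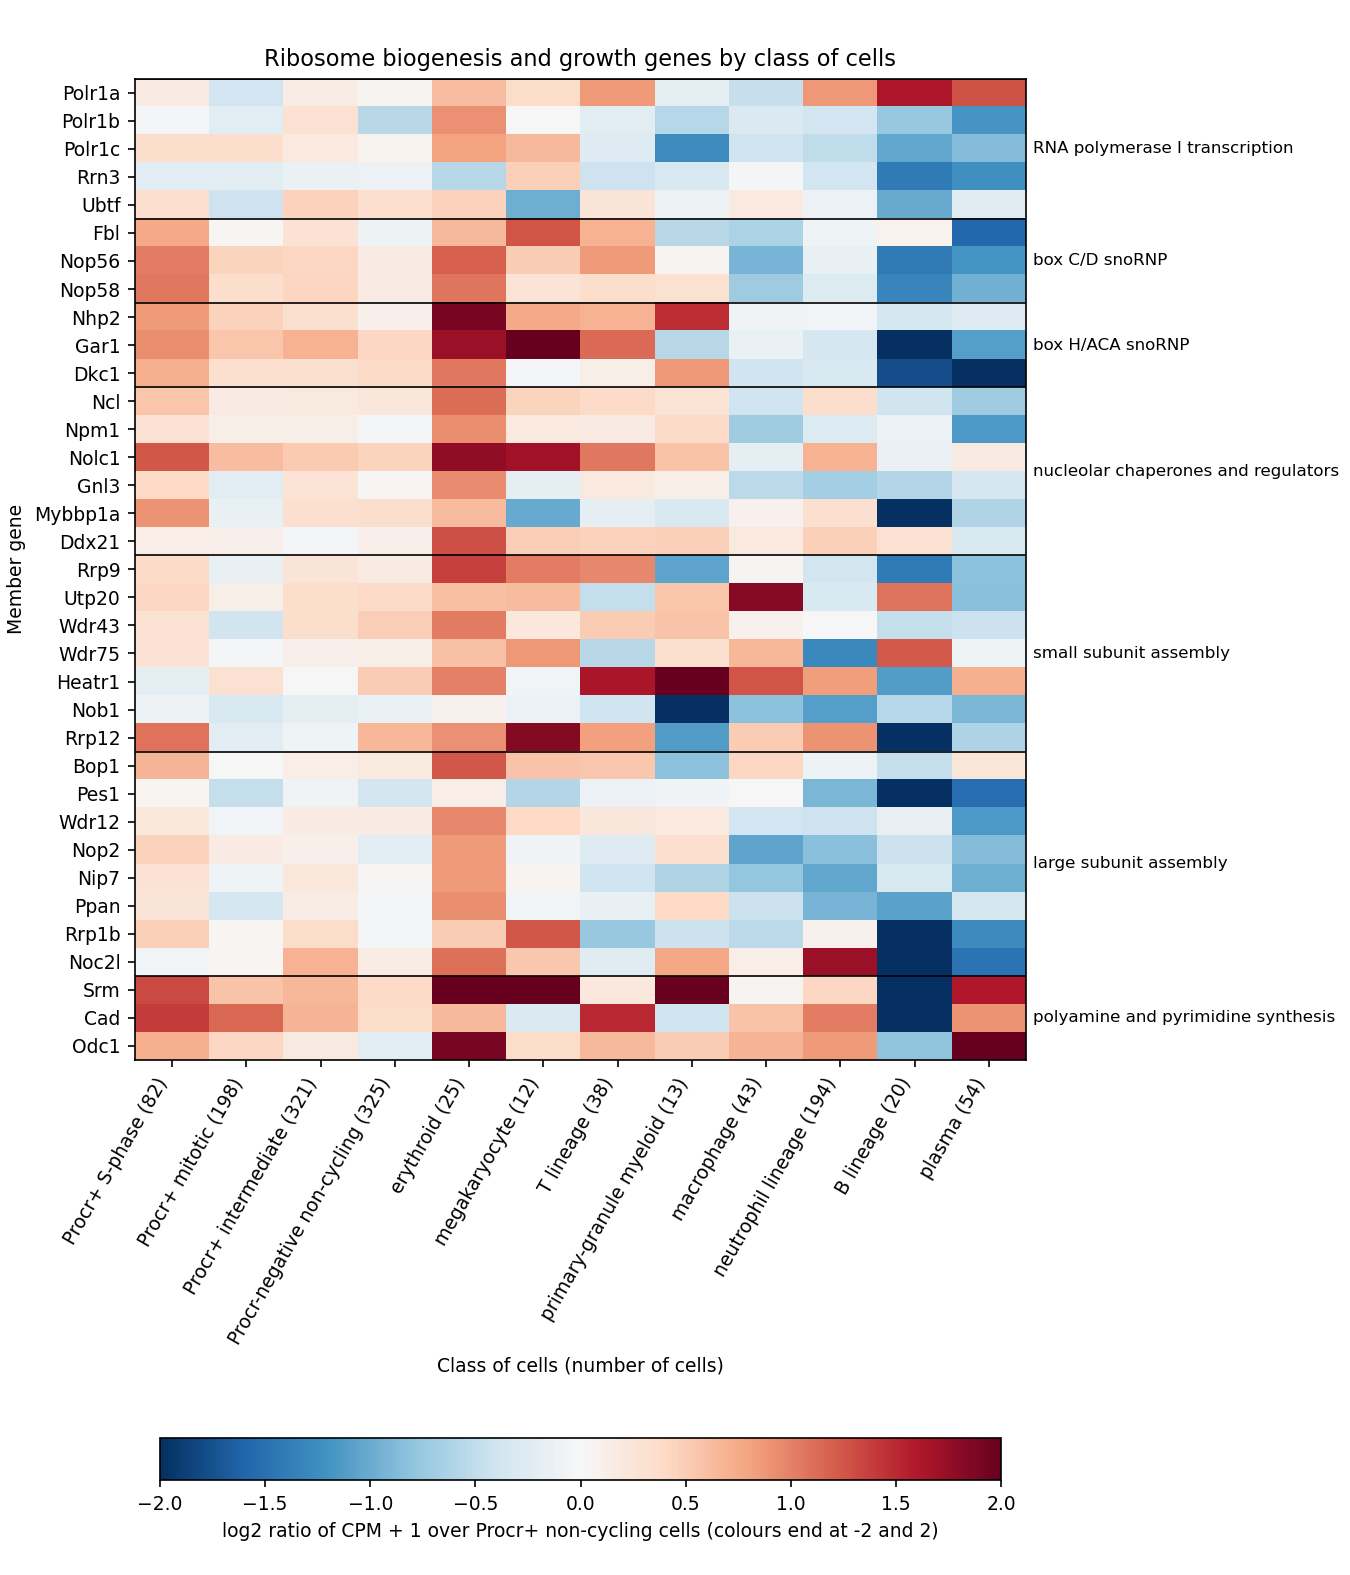
Log2 ratio of CPM + 1 of each member gene (rows, grouped by role) in each class of cells (columns, with the number of cells) over Procr+ non-cycling cells. Red is higher and blue lower than in Procr+ non-cycling cells, and colours end at -2 and 2. The snoRNP and synthesis genes are red in S-phase cells. In erythroid cells 29 of 33 tested members pass the fold upwards, against 21.1% of all genes. Plasma cells are mostly blue, with 19 of 33 past the fold downwards, against 49.7% of all genes, and a few genes such as Odc1 and Srm are red.

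Cycling cells as a whole, S-phase and mitotic together, were set against non-cycling Procr+ cells next, and 16 of the 67 libraries held at least 5 cells of both classes. The members' median log2 ratio was 0.21, and that of all genes was -0.06. By the fold, 8 of 33 members were higher, against 12.2% of all genes, and 0 were lower, against 13.7% of all genes. The 8 members were Cad, Srm, Nolc1, Gar1, Nop56, Nop58, Nhp2 and Odc1. With every cell weighted equally, or as a median over libraries, the count was 5. Thinning cells to 30000 counts gave a median of 0.09, and the stricter gates of 12 mitotic or 14 S-phase genes gave 0.13. Cells with fewer counts could not be thinned and were left out there, and 3634 of the 4185 kept cells had enough.

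Cad encodes the enzyme that carries out the opening steps of pyrimidine synthesis and lies on chromosome 5 from 31054780 to 31078479 (GRCm38, as are all positions below). It had 35.9 CPM in S-phase cells, 30.1 CPM in mitotic cells and 13.0 CPM in non-cycling cells. Over libraries with at least 5 cells of the class it ran from 0 through a median of 22.8 to 43.7 CPM in 9 libraries of mitotic cells, and from 0 through 10.8 to 56.2 CPM in 59 libraries of non-cycling cells. These library ranges overlapped. In cycling against non-cycling cells its log2 ratio was 1.24, and it was higher in 12 of the 16 libraries that held at least 5 cells of both.

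Srm encodes spermidine synthase and lies on chromosome 4 from 148591503 to 148594993. It had 212 CPM in S-phase cells, 125 CPM in mitotic cells and 84.1 CPM in non-cycling cells. Non-cycling cells spanned 30.2 to 228 CPM over libraries, with a median of 77.3 CPM, and the 2 libraries with 5 or more S-phase cells, at 68.9 and 151 CPM, fell inside that range. The log2 ratio was 1.33 in S-phase and 0.88 in cycling cells, both against non-cycling cells. Within those 2 libraries the median log2 ratio of S-phase over non-cycling cells was 0.04, far below the pooled value.

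Odc1, which encodes ornithine decarboxylase, the enzyme before spermidine synthase in the same pathway, lies on chromosome 12 from 17544794 to 17551505. Its level was 34.8 CPM in S-phase cells, 28.0 CPM in mitotic cells and 20.7 CPM in non-cycling cells. The log2 ratio of cycling over non-cycling cells was 0.53, close to the fold, and Odc1 was higher in 9 of 16 libraries.

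Nop56 and Nop58 are the scaffold proteins of the box C/D snoRNP, on chromosome 2 from 130274430 to 130279313 and on chromosome 1 from 59684971 to 59719044. Nop56 had 376 CPM in S-phase cells, 252 CPM in mitotic cells and 185 CPM in non-cycling cells, and was higher in cycling than in non-cycling cells in 16 of 16 libraries, with a median over libraries of 0.67 on the log2 scale. Nop58 had 485 CPM in S-phase cells, 298 CPM in mitotic cells and 234 CPM in non-cycling cells and was higher in 14 of 16. Fbl, the methyltransferase of the same particle, had 211 CPM in S-phase cells, 126 CPM in mitotic cells and 125 CPM in non-cycling cells. All 3 genes were thus highest in S-phase cells, and Fbl alone of them was level between mitotic and non-cycling cells. Nop56 shares exonic positions with Idh3b, and the sources used here do not say whether counting used the strand.

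In mitotic over non-cycling cells the role median was 0.47 for box H/ACA and 0.35 for box C/D. Nhp2, on chromosome 11 from 51619735 to 51623714, had 482 CPM in S-phase cells, 370 CPM in mitotic cells and 268 CPM in non-cycling cells and was higher in cycling cells in 14 of 16 libraries. Gar1, on chromosome 3 from 129824912 to 129831396, had 43.5 CPM in S-phase cells, 33.3 CPM in mitotic cells and 22.4 CPM in non-cycling cells and was higher in 11 of 16. Dkc1, the pseudouridine synthase itself, had 250 CPM in S-phase cells, 189 CPM in mitotic cells and 150 CPM in non-cycling cells. Its log2 ratio of cycling over non-cycling cells, 0.48, stayed under the fold. Exons of Nhp2 overlap Rmnd5b and those of Dkc1 overlap Mpp1.

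Among the chaperones, Nolc1, which escorts snoRNPs and lies on chromosome 19 from 46075863 to 46085530, had 210 CPM in S-phase cells, 136 CPM in mitotic cells and 88.6 CPM in non-cycling cells. It was higher in cycling cells in 10 of 16 libraries, with a median over libraries of 0.43, against 0.86 pooled. The abundant histone chaperone Npm1 differed little, at 1479 CPM in S-phase cells, 1310 CPM in mitotic cells and 1210 CPM in non-cycling cells, yet it was higher in cycling cells in 14 of 16 libraries. Ncl had 1018 CPM in S-phase cells, 777 CPM in mitotic cells and 691 CPM in non-cycling cells. The helicase Ddx21 was close to level over the cycle, with 120 CPM in S-phase cells, 118 CPM in mitotic cells and 110 CPM in non-cycling cells.

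The assembly factors differed less. Over the 6 tested small subunit genes, cycling over non-cycling log2 ratios ran from -0.24 to 0.22, with a median of 0.07. Over the 7 tested large subunit genes they ran from -0.28 to 0.27, with a median of 0.05. Nob1, the endonuclease of the last small subunit cut, was lowest of the first group, with 116 CPM in S-phase cells, 99.8 CPM in mitotic cells and 124 CPM in non-cycling cells. It was higher in cycling cells in 3 of 16 libraries. Pes1, a subunit of the PeBoW complex of large subunit processing, had 84.0 CPM in S-phase cells, 58.9 CPM in mitotic cells and 82.1 CPM in non-cycling cells. The RNA polymerase I genes ran from -0.22 for Rrn3, the factor that lets the polymerase start, to 0.35 for Polr1c, a subunit shared with RNA polymerase III.

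**Figure D3:**
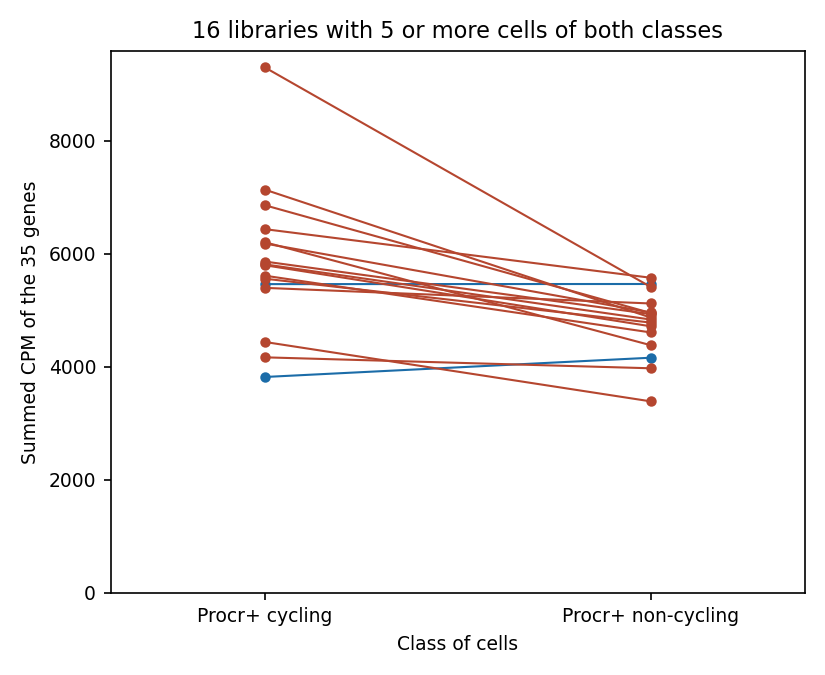
Summed CPM of the 35 genes in Procr+ cycling and Procr+ non-cycling cells of the same library, for the 16 libraries with at least 5 cells of both classes. Each line is 1 library, red where cycling cells were higher and blue where they were not. The sum was higher in cycling cells in 14 libraries and lower in 2.

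Over these 16 libraries the member sum ran from 3819 through a median of 5803 to 9295 CPM in cycling cells, and from 3388 through 4853 to 5575 CPM in non-cycling cells. The highest value came from 5 cycling cells of library Lib8, whose non-cycling cells had the lowest median depth, 23549 counts. The members' median log2 ratio was above 0 in 13 of the 16 libraries and ranged from -0.33 to 0.68. The library with the most cycling cells, Lib23 with 36, had 4166 CPM in cycling cells and 3973 CPM in non-cycling cells. Leaving out each library in turn kept the pooled median between 0.17 and 0.25.

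S-phase and mitotic Procr+ cells were also compared directly. By the fold, 14 of 33 members were higher in S-phase cells, against 11.8% of all genes, and 0 were lower, against 16.6% of all genes. The members' median log2 ratio was 0.39, and all genes had -0.02. Depth differed as well, with a median of 212436 counts in S-phase and 99894 in mitotic cells. Mybbp1a, a nucleolar MYB-binding regulator, had the largest ratio, 1.05, with 123 CPM in S-phase cells and 58.7 CPM in mitotic cells. Srm followed with 0.76 and Ubtf, the factor that keeps ribosomal DNA open, with 0.75. Ubtf had 111 CPM in S-phase cells and 65.8 CPM in mitotic cells. In the 1 library with at least 5 cells of both classes the direction turned for Srm (-0.13) and Ubtf (-0.44). Weighting the mitotic cells to the library make-up of the S-phase cells gave a median of 0.54 and 20 members past the fold, but that 1 library gave 0.016. Without library Lib61 the count was 10. Here too marker sums differed, with macrophage markers at 17.4 CPM in S-phase and 46.9 CPM in mitotic cells and neutrophil markers at 74.4 CPM in S-phase and 173 CPM in mitotic cells, and their part in the result was not tested.

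Mitotic against non-cycling Procr+ cells gave a members' median of 0.04, with 4 of 33 higher by the fold, against 12.5% of all genes, and 0 lower, against 14.6%. The median was -0.01 without library Lib112, while the members' median was above 0 in 7 of 8 libraries. Nolc1 and Srm passed the fold in the pooled sums but were higher in 3 and 4 of these 8 libraries. The 321 intermediate cells, with a median depth of 83028 counts, had a members' median of 0.25 over non-cycling cells and of all genes -0.02. In them 4 members were higher, against 4.59% of all genes, and 0 lower, against 5.25%. Within libraries the intermediate difference was smaller, with a median over genes of 0.14 and 17 of 28 libraries higher.

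A gate cuts through a range of cells, so the members were also read along the number of S-phase genes detected in Procr+ cells with fewer than 8 mitotic genes. The per-cell median sum of the 35 genes lay between 4511 and 4647 CPM for cells with 0 to 3 S-phase genes. It was 4786 CPM at 4 to 5 genes, 5562 CPM at 6 to 7, 6864 CPM at 8 to 9, 6786 CPM at 10 to 12 and 7166 CPM at 13 to 20. Srm ran from 67.7 CPM at 0 genes to 236 CPM at 13 to 20, and Nop56 from 182 to 365 CPM. Procr itself had 400 CPM at 0 genes and 156 CPM at 13 to 20. Median depth was 122778 counts at 0 genes, 87425 at 6 to 7 and 205550 at 13 to 20, so the cells with 6 to 7 genes were the shallowest of these groups. Among all 4185 kept cells, of any class, 200 had 6 or 7 and 130 had 8 or 9 mitotic genes and so lay beside the mitotic gate.

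**Figure D4:**
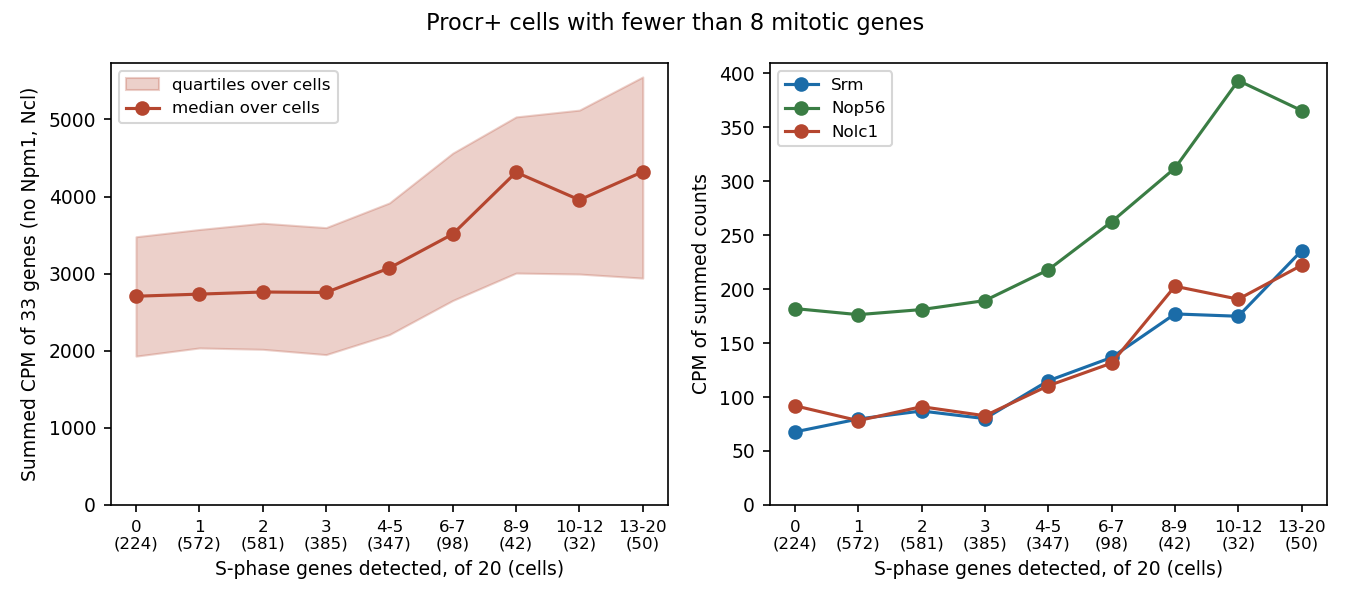
Procr+ cells with fewer than 8 mitotic genes, by the number of S-phase genes detected out of 20 (horizontal axis, with the number of cells). The left panel gives the per-cell sum of 33 members without Npm1 and Ncl, as the median and quartiles in CPM. The right panel gives the CPM of summed counts for Srm, Nop56 and Nolc1. In the left panel the median is nearly flat up to 3 S-phase genes and higher from 4 on. In the right panel Srm lies between 67.7 and 87.0 CPM at 0 to 3 S-phase genes, and all 3 genes are higher from 4 on.

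Further genes of the pathway were read from fixed lists. They are read beside the 12.2% of all genes that were higher and the 13.7% that were lower in cycling over non-cycling cells. Of 13 tested further RNA polymerase I and snoRNP genes, 3 were higher by the fold in cycling over non-cycling cells and 0 lower, with a median of 0.26. Snu13, a box C/D core protein, had 322 CPM in cycling and 215 CPM in non-cycling cells, and Ruvbl2, of the snoRNP assembly chaperone, 179 CPM in cycling and 112 CPM in non-cycling cells. Of 33 further small subunit factors 1 was higher and 0 lower, with a median of 0.06. The 1 gene was Bysl, with 32.7 CPM in cycling and 18.3 CPM in non-cycling cells. Of 29 further large subunit factors 4 were higher and 1 lower, with a median of 0.03. Lyar was among the higher, with 176 CPM in cycling and 100.2 CPM in non-cycling cells, and Noc3l was the lower one, with 7.36 CPM in cycling and 13.0 CPM in non-cycling cells. Of 30 further growth genes 13 were higher and 0 lower, with a median of 0.45, led by the folate enzymes Mthfd2 (39.5 CPM in cycling and 12.9 CPM in non-cycling cells) and Shmt1 (52.1 CPM in cycling and 19.9 CPM in non-cycling cells). Of 12 genes of the RNA exosome, which trims precursor ends, 3 were higher and 0 lower. The ribosomal protein genes themselves had a median of -0.16.

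Myc itself had 338 CPM in S-phase cells, 211 CPM in mitotic cells and 343 CPM in non-cycling cells. Mycn had 117 CPM in S-phase cells, 89.9 CPM in mitotic cells and 188 CPM in non-cycling cells. Of 10 tested genes of the MYC network, 0 were higher and 5 lower by the fold in cycling over non-cycling cells, against 12.2% and 13.7% of all genes. Mxd3, another MAX partner, was under 10 CPM over all kept cells and so was not among the 10. It had 0.16 CPM in S-phase cells, 51.5 CPM in mitotic cells and 0.28 CPM in non-cycling cells, and was thus high in mitotic cells. Mxd4, a MAX partner known to oppose MYC, had 6.74 CPM in S-phase cells and 27.0 CPM in non-cycling cells.

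Within non-cycling Procr+ cells, 1481 cells with Myc at 20 CPM or more were set against 251 cells with 0 Myc counts. The members' sum was 4999 CPM in Myc+ cells and 4247 CPM in Myc-negative cells. By the fold 9 of 33 members were higher, against 7.22% of all genes, and 1 was lower, against 5.6%. The members' median log2 ratio was 0.29 and that of all genes 0.02, and the members were higher in 18 of 22 libraries. Heatr1, a small subunit factor, had the largest ratio, 0.88, with 16.2 CPM in Myc+ and 8.36 CPM in Myc-negative cells. Gar1 had 22.6 CPM in Myc+ and 12.5 CPM in Myc-negative cells, and Srm 88.8 CPM in Myc+ and 52.1 CPM in Myc-negative cells. Utp20 was the 1 lower member, with 14.2 CPM in Myc+ and 22.0 CPM in Myc-negative cells, yet it was higher in Myc+ cells in 14 of 22 libraries, and without any 1 of 4 libraries (Lib53, Lib70, Lib78 or Lib102) it did not pass the fold. Depth moved with this split, at a median of 134422 counts in Myc+ and 73743 in Myc-negative cells. Among cells with at least 100000 counts the median was 0.31, with Myc-negative cells weighted to the libraries of Myc+ cells it was 0.17, and without library Lib88 the count was 6.

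Other splits of the non-cycling Procr+ cells gave smaller differences. In 1381 Cd34+ against 345 Cd34-negative cells, with 0 Cd34 counts, the members' median was 0.13, with all genes at 0.01. Median depth was 137731 counts in Cd34+ and 83677 in Cd34-negative cells. Here 1 member was higher, against 6.31% of all genes, and 0 lower, against 5.06%. It was Cad, with 14.4 CPM in Cd34+ and 9.65 CPM in Cd34-negative cells, and the count was 0 without any 1 of 8 libraries, Lib56 among them. Weighting by library, or giving every cell equal weight, brought the median to 0.05. In the 482 cells with the most immediate-early transcripts (Fos, Jun and 7 others) against the 482 with the least, the median was -0.11, with 3 members higher, against 6.2% of all genes, and 0 lower, against 4.63%. Thinning gave -0.05, and the median was -0.07 without library Lib50. Without library Lib56, 2 members were higher. The members were higher in 6 of 19 libraries.

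In Procr-negative cells, with 0 Procr counts and no lineage call, the member sum was 7414 CPM in 39 S-phase cells, 6614 CPM in 100 mitotic cells and 5268 CPM in 325 non-cycling cells. Procr-negative cycling cells over Procr+ cycling cells gave a members' median of 0.26, with all genes at -0.09. Of the members 4 were higher, against 7.66% of all genes, and 0 lower, against 17.7%. Gar1 had 61.5 CPM in Procr-negative cycling and 36.8 CPM in Procr+ cycling cells. In this class 34 of the 139 cells came from library Lib22, and 6 members were higher without it. The count was 7 with gates of 12 mitotic or 14 S-phase genes, 9 with Procr+ cells weighted by library and 13 in the 1 library with at least 5 cells of both classes. Procr-negative over Procr+ non-cycling cells gave 0.11, with 1 member higher, against 6.64%, and 1 lower, against 7.66%. Median depth was 73662 counts in these Procr-negative and 130774 in the Procr+ cells. The members were higher in 10 of 27 libraries, the median over libraries was -0.090, and the count of higher members was 0 without any 1 of 18 libraries.

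Among lineage-marker cells, erythroid cells had the highest and plasma cells the lowest member sums. The classes hold 12 to 194 cells, and the whole transcriptome differs between them and the non-cycling Procr+ cells, so the members are read beside all genes. In 25 erythroid cells the member sum was 10328 CPM, against 4869 CPM in non-cycling Procr+ cells. Of 33 members 29 were higher, against 21.1% of all genes, and 1 lower, against 46.5%. The members' median log2 ratio was 0.93 and that of all genes -0.40. The lower quartile of erythroid cells, 8617 CPM, lay above the upper quartile of non-cycling Procr+ cells, 5773 CPM.

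Srm had 417 CPM in erythroid and 84.1 CPM in non-cycling Procr+ cells, a log2 ratio of 2.30 that was the largest of the members. Nhp2 had 1000.03 CPM in erythroid and 268 CPM in non-cycling Procr+ cells, and Odc1 80.0 CPM in erythroid and 20.7 CPM in non-cycling Procr+ cells, both with a log2 ratio of 1.90. Rrn3 was the 1 lower member, with 20.1 CPM in erythroid and 30.5 CPM in non-cycling Procr+ cells, and without library Lib7 or Lib17 the count of lower members was 0. Erythroid cells were also mitotic and S-phase rich, with a summed mitotic level of 3191 CPM against 113 CPM and a summed S-phase level of 2518 CPM against 290 CPM in non-cycling Procr+ cells, and their median depth was 287879 counts. The part of the cell cycle in the erythroid difference was not tested. No library held 5 cells of both classes, but weighting the Procr+ cells to the libraries of the erythroid cells gave a median of 0.82.

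In plasma cells the counts lay near those of all genes. Of 33 members 19 were lower in 54 plasma cells, against 49.7% of all genes, and 5 higher, against 18.8%, with a members' median of -0.82 and -0.49 for all genes. The 5 higher were Odc1, Srm, Polr1a, Cad and Heatr1, and without library Lib22 the count was 3. Odc1 had 159 CPM in plasma and 20.7 CPM in non-cycling Procr+ cells, a log2 ratio of 2.88. In 3 libraries with at least 5 plasma cells it had 73.3, 136 and 204 CPM, all above the 50.6 CPM that was its highest value in the 59 libraries of non-cycling Procr+ cells. Srm had 256 CPM in plasma and 84.1 CPM in non-cycling Procr+ cells, but its 3 plasma libraries, at 86.8, 110 and 219 CPM, lay inside the non-cycling range. Polr1a had 0, 2.7 and 65.0 CPM in the same 3 libraries, and its pooled ratio was 1.27.

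Dkc1 was the lowest member in plasma cells, with 28.7 CPM against 150 CPM in non-cycling Procr+ cells, a log2 ratio of -2.35. In the 3 libraries with plasma cells it had 10.8, 41.6 and 86.9 CPM. Within them its median log2 ratio was -0.47, and it was higher in plasma cells in 1 of the 3. Fbl had 41.4 CPM in plasma and 125 CPM in non-cycling Procr+ cells, and Npm1 548 CPM in plasma and 1210 CPM in non-cycling Procr+ cells. All 3 box C/D genes and 5 of 7 tested large subunit genes were lower by the fold. Plasma markers alone made up 37953 CPM of the plasma cells' counts, and 228 CPM in non-cycling Procr+ cells, and their part in the result was not tested. Relative to the median of all genes, the members' median was -0.33.

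B-lineage cells, 20 in all, had a members' median of -0.76, with all genes at -0.50. Of the members 19 were lower, against 49.9% of all genes, and 3 higher, against 20.6%. Without library Lib3, 5 were higher, and without Lib1, 2. Neutrophil-lineage cells, 194 in all, had -0.27, with all genes at -0.18. Here 8 members were lower, against 36.1%, and 5 higher, against 25.8%. Neutrophil-lineage cells varied widely, with quartiles of 1218 and 5839 CPM for the per-cell sum, and 45 of them came from library TP57. Without TP57 the median was 0.049, and weighting the Procr+ cells by library gave 0.25. Nip7, a large subunit factor, had 50.5 CPM in neutrophil-lineage and 105 CPM in non-cycling Procr+ cells, but was higher in 1 of 2 libraries. Cad, in contrast, had 27.5 CPM in neutrophil-lineage and 13.0 CPM in non-cycling Procr+ cells.

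The other lineage classes held 12 to 43 cells, and their values moved when 1 library was left out. In 38 T-lineage cells 12 members were higher, against 22.2% of all genes, and 2 lower, against 37.7%, with a median of 0.22 that was -0.03 without library Lib3 and 0.46 without Lib22. Without Lib3, 8 were higher and 8 lower. The lower count was 4 without Lib2 and 1 without Lib9, Lib17 or Lib22. In 12 megakaryocyte cells 12 members were higher, against 21.6%, and 3 lower, against 44%, with a median of 0.37 that was 0.17 without library Lib10, and 5 were lower without Lib10, Lib22 or Lib102. In 13 primary-granule cells 8 were higher, against 20.8%, and 8 lower, against 45.3%, with a median of 0.12 that was -0.13 without library Lib1, and 5 were lower without Lib77. In 43 macrophages 5 were higher, against 27.7%, and 9 lower, against 35.4%, with a median of -0.19. Without library TP56 that median was 0.16, with 10 members higher and 2 lower. Without library Lib3 it was -0.35, and 3 were higher, and without Lib114 14 were lower. Per cell, the median member sum was 3848.5 CPM in T-lineage, 4460 CPM in megakaryocyte and 4699 CPM in primary-granule cells. It was 2669 CPM in macrophages and 4629 CPM in non-cycling Procr+ cells. The pooled sums were 6041, 6549, 6319 and 3775 CPM in these 4 classes, against 4869 CPM in non-cycling Procr+ cells. T-lineage and megakaryocyte cells were thus higher in the pooled sum but not per cell. Basophil and mast (1 cell) and dendritic (3 cells) classes were too small to describe.

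Among non-cycling Procr+ cells, the member sum also varied from library to library. In 56 libraries with at least 10 such cells it ran from 3388 CPM (Lib18) through a median of 4858 CPM to 6440 CPM (Lib14). Srm ran from 30.2 to 172 CPM and Npm1 from 788 to 1531 CPM in the same libraries.

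Promoters are shown because the snoRNP genes were higher together in S-phase cells, and because the E-box CACGTG is the letter pattern that MYC with MAX is known to bind. Windows of 250 bases before to 50 after the start, from RefSeq (GRCm38.p6), were found for 30 of the 35 members. On both strands, CACGTG was in the windows of 6 of 30 members (20%). It was in 12.5% of 6873 genes with 10 CPM or more over all kept cells, and in 7.15% of all 32851 windows. Noc2l, among the 30 members, did not reach that level. The 6 members were Mybbp1a, Nop2, Pes1, Rrn3, Utp20 and Wdr43, and none of them is a snoRNP or synthesis gene. The 5 members without a window were not searched, and Fbl or Srm is among them, so not every snoRNP and synthesis promoter was read. The ETS core CCGGAA was in 13 of 30 (43.3%), against 35.3% of genes at that level. The GC box GGGCGG was in 22 of 30 (73.3%) against 69.9%, the CCAAT box in 10 of 30 (33.3%) against 43.1%, and the palindromic NRF1 pattern in 0 of 30 against 2.81%. A match is a description of letters, not of a bound site. The first pair of windows below hold E-boxes and the rest belong to snoRNP genes past the fold in S phase. Fbl, also past that fold, is not printed. Capitals mark any of the 5 patterns, Gar1 is on the minus strand and the others are on the plus strand, and each ends at the base before the RefSeq start, which can differ from the GENCODE start above.
Rrn3, chr16:13780449-13780698: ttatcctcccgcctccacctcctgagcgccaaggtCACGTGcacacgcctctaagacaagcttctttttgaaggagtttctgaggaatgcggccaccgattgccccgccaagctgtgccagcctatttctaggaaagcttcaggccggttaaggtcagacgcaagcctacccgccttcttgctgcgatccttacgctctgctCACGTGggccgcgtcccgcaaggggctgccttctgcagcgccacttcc
Nop2, chr6:125131783-125131882: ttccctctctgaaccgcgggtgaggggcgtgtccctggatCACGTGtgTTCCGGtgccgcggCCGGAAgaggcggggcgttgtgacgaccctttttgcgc
Nop56, chr2:130274292-130274411: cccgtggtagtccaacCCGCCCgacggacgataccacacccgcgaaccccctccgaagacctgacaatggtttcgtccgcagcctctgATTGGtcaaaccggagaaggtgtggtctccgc
Nop58, chr1:59684886-59685005: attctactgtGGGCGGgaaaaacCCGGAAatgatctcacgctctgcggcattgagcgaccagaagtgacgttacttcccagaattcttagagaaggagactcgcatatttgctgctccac
Nhp2, chr11:51619653-51619772: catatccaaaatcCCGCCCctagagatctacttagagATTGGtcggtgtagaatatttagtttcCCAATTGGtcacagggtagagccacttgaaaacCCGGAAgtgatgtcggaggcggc
Gar1, chr3:129831397-129831516: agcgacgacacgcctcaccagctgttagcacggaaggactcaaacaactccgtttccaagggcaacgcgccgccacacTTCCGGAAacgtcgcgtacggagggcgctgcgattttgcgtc
Dkc1, chrX:75095734-75095853: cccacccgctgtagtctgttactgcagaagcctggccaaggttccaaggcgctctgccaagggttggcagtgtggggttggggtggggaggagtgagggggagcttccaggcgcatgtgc
The printed stretch of Dkc1 holds none of the 5 patterns, and Nop58 and Nhp2 both hold a GC box and an ETS core.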

How the data were processed

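Per the labels' protocols, cells were sorted singly and sequenced by a 3′-enriched variant of Smart-seq2. The authors deposited 1 matrix of whole-number counts. Tools named in the submitters' processing notes were HISAT2 (2.1.0), HTSeq (0.9.1) and Trimmomatic (0.36), with build GRCm38. The sources used here do not say if a count is a read or a molecule, and a detected gene had a median of 10 counts. Of 4288 cells, 17 columns of 1 library were not used. No doublet caller was run. Cells of the Procr gate with a lineage call were left out. Procr was above 0 but under the gate in 395 kept cells, and those of them without a lineage call were left out too.

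Non-cycling cells had at most 3 mitotic and 5 S-phase genes at 10 CPM, mitotic cells at least 8 mitotic genes, and S-phase cells at least 10 S-phase and fewer than 8 mitotic genes. Summed counts were turned into CPM with exact Poisson intervals at 95% (SciPy 1.17.1). Members and lists were chosen with earlier results of these data known. Values are given in full for members past the fold in cycling over non-cycling cells and for role groups of 3 genes, and for the 2 largest genes each way in other lists. Members named in other comparisons were chosen after their values were seen. The computation was tested on simulated data. Positions are from GENCODE M21. In addition to the 16 alternatives planned, 4 were added after seeing the data.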

Additional observations from a re-analysis of the deposited data

How the results depend on the processing

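No paired analysis was possible because no cell could be tied to a sample or its replicate number, and classes were set side by side within libraries in its place. Member medians were recomputed under 19 alternatives each, 18 where no library held 5 cells of both classes, and each library was left out in turn. In S-phase against non-cycling Procr+ cells the median stayed between 0.32 and 0.52, in erythroid cells between 0.82 and 1.33, in Myc+ cells between 0.17 and 0.37. The other values that changed are these, and the cause was not tested. With every cell weighted equally, and as a median over libraries, 5 members passed the fold in cycling over non-cycling cells. Thinning gave -0.52 for the 133 of 194 neutrophil-lineage cells and -1.08 for the 43 of 54 plasma cells that had enough counts. Totals without cell cycle and ribosomal protein genes gave -0.39 for neutrophil-lineage cells. A Procr gate of 5 CPM gave -0.48 for macrophages. Centring on the median of all genes gave -0.26 for B-lineage, 0.49 for primary-granule, 1.33 for erythroid and 0.69 for megakaryocyte cells. Leaving out the library with most cells gave 0.049 for neutrophil-lineage cells and 0.16 for macrophages. As a median over libraries, the values were 0.14 for intermediate cells, -0.090 for Procr-negative non-cycling cells, -1.91 for B-lineage cells, 0.019 for neutrophil-lineage cells and 0.20 for macrophages. In S-phase over mitotic cells it was 0.016 with 9 members higher, from 1 library, where Ubtf had -0.44, Nop56 -0.34, Gnl3 -0.37, Bop1 -0.91 and Srm -0.13. In Procr-negative over Procr+ cycling cells it was 0.37 with 13 higher, from 1 library, against 7 with gates of 12 mitotic or 14 S-phase genes and 9 with Procr+ cells weighted by library. Under those gates Bop1 had -0.12 in S-phase over non-cycling cells and -0.31 over mitotic cells, and Polr1a had -0.15 over mitotic cells. Weighting by library gave -1.49 for B-lineage, 0.25 for neutrophil-lineage, -0.40 for primary-granule cells and 0.37 for macrophages. B-lineage cells with at least 100000 counts gave -1.81. Single members past the fold were recomputed only in S-phase and in cycling over non-cycling Procr+ cells, and in S-phase over mitotic ones. There 599 alternatives kept the value close, 58 moved it and 8 reversed it. Members named in the other comparisons were not recomputed in this way. Depth limits the smallest classes, and the 20 B-lineage cells had 0 counts of Cad and Rrp12.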
